A study of Mus musculus with 6 samples.

Results

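The 54 genes described here act in G2 and mitosis, the part of the cell cycle in which a cell that has copied its DNA condenses, aligns and separates its chromosomes and then divides. They were chosen by name from this biology, with earlier results of these data known. All 54 are among the 54525 genes of the deposited count table. RNA was sequenced from 3 samples of *Abat* cKO and 3 samples of WT mouse T cells. The *Abat* cKO mice lack *Abat*, which encodes the mitochondrial enzyme that breaks down γ-aminobutyrate (GAB), in T cells through *Cd4*-Cre, a transgene that acts from the CD4+CD8+ stage in the thymus, so that CD8+ T cells lose the gene too. WT is the Wild Type genotype, C57BL/6 mice in the methods, and the labels give the strain C57BL/6N for both genotypes. Littermate controls or mice with the Cre alone are not named. The mice of both genotypes were 6 to 8 weeks old by the labels. Naive CD4+ T cells of their spleen and lymph nodes were activated for 36 h with plate-bound antibodies to CD3 and CD28 and IL-2, without polarising cytokines (the TH0 condition), and neither genotype received another treatment. The comparison asks how loss of *Abat* alters gene expression in activated T cells.

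Entry into mitosis is driven by cyclin-dependent kinase 1 (CDK1) bound to a B-type cyclin. WEE1 holds this kinase inactive with inhibitory phosphates until CDC25 phosphatases remove them, and Polo-like and Aurora kinases carry the signal to the centrosomes, spindle and centromeres. The anaphase-promoting complex (APC/C) with CDC20 then marks securin and cyclin B for destruction, which frees separase to cut the links between sister chromatids. Messages of most of these genes are low in resting cells and in G1 and rise in G2 and M phase. They are known to be governed through CCAAT boxes, bound by NF-Y, and a short element close to the start site, the cell cycle genes homology region (CHR), bound by the MuvB complex with B-MYB and FOXM1. Naive T cells are out of the cell cycle and divide rapidly after activation, so these messages are a common readout of cycling T cells. In other assays, by flow cytometry, the study reports moderately lower proliferation of T cells without ABAT after activation in vitro. It reports no effect on progression into S phase or on DNA content early after activation.

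Summed counts over genes ran between 19566016 and 21772348 in the *Abat* cKO samples and between 20120057 and 24396746 in the WT samples, and the lowest count of any of the 54 genes in any sample was 94. *Abat* itself had 2 to 7 counts in the *Abat* cKO samples and 0 to 5 in the WT samples, too few to check the genotype labels. *Cd4* and the other 7 T cell markers were detected in every sample, with a summed level of 2226 to 2316 CPM (counts scaled here to the total over all genes of the sample) in *Abat* cKO and 2684 to 2840 CPM in WT, and 6 of the 8 fell. Of 9 B cell markers 6 fell, with a sum of 99.0 to 103 CPM in *Abat* cKO and 249.9 to 266 CPM in WT. Both CD8+ T cell markers fell, with 5.52 to 6.43 CPM in *Abat* cKO and 7.70 to 24.3 CPM in WT. Of 5 NK cell markers 3 rose, with 6.155 to 6.95 CPM in *Abat* cKO and 1.39 to 4.06 CPM in WT. The 2 γδ T cell markers that the table lists rose, with 7.26 to 7.395 CPM in *Abat* cKO and 2.485 to 4.10 CPM in WT. The 8 myeloid markers summed to 1.05 to 2.07 CPM in *Abat* cKO and 0.596 to 1.04 CPM in WT, and of the 3 erythroid markers *Hbb-bs* and *Alas2* were at 0 throughout. Their part in the results on mitotic genes was not tested, and in RNA of a whole culture a change in the share of dividing cells and a change in RNA per cell cannot be told apart. On the second principal component (17.7% of the variance) *Abat* cKO replicate 1 and WT replicate 3 stood apart from the other samples. The study states that cells of the genotypes were activated and harvested separately, so that effects of genotype and of the culture cannot be told apart.

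Promoter sequences are shown first because many of the 54 genes share letters there that the choice of genes did not use. RefSeq windows of 300 bases, which run from 250 before to 50 bases after the RefSeq start of the gene on GRCm38.p6, were matched for 43 of the 54 genes by symbol. Below are the windows of *Ccnb1* (chr13:100786437-100786736, minus strand), *Ccnb2* (chr9:70421505-70421804, minus strand), *Cdc20* (chr4:118437294-118437593, minus strand), *Plk1* (chr7:122159185-122159484, plus strand), *Ube2c* (chr2:164769679-164769978, plus strand) and *Aurka* (chr2:172370521-172370820, minus strand), 6 core regulators of mitosis that rose in *Abat* cKO. *Pttg1* (chr11:43425932-43426231, minus strand), the 1 gene of the 54 that did not pass the test, is given beside them. Capitals mark the CCAAT box wherever it lies on either strand, so that a box on the opposite strand is read here as ATTGG. They also mark a hexamer like the core of the CHR, TTTGAA with its complement TTCAAA. The other form of that hexamer, TTTAAA, is its own complement and is in capitals too.
Ccnb1: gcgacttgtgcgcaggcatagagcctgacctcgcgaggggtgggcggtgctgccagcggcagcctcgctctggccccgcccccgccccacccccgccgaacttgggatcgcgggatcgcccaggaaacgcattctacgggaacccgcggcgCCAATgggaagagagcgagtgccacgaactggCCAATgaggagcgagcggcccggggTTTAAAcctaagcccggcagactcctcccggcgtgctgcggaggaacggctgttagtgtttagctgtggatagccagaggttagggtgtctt
Ccnb2: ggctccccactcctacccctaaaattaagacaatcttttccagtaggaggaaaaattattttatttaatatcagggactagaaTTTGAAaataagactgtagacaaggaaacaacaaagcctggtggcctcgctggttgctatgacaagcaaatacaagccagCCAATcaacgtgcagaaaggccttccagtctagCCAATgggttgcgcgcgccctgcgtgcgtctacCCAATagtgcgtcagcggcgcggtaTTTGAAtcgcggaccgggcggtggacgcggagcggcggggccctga
Cdc20: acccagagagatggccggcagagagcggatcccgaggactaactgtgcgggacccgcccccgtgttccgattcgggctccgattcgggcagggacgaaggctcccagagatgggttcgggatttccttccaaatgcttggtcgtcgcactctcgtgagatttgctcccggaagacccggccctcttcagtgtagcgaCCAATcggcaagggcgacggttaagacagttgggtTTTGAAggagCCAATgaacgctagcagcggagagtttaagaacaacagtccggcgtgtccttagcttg
Plk1: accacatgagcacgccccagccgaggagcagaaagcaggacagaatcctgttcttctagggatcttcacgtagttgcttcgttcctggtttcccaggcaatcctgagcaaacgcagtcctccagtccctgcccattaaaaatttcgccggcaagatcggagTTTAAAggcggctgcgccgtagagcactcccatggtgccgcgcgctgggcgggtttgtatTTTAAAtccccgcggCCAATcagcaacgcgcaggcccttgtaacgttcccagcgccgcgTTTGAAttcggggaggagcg
Ube2c: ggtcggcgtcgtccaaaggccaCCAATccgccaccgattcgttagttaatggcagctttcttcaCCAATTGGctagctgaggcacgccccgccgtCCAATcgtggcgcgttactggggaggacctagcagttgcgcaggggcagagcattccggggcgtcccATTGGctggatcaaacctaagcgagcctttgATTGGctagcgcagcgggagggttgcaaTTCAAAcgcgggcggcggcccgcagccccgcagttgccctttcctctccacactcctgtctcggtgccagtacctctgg
Aurka: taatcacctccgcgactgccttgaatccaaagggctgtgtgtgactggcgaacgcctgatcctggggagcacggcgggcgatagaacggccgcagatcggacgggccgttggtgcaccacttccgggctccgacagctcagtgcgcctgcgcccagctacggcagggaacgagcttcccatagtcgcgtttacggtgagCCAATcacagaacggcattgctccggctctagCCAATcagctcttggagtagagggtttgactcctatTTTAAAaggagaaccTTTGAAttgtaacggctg
Pttg1: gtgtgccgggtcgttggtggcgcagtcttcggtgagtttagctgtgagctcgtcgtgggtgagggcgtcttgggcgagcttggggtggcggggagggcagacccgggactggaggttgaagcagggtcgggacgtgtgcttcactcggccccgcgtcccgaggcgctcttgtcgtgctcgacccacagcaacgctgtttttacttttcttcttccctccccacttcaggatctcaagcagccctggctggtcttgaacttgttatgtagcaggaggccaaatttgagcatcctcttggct
All windows but that of *Pttg1* start upstream of the GENCODE gene and include its first bases. The window of *Pttg1* lies wholly within the GENCODE gene (chr11:43420250-43426251), so it does not show the bases upstream of that gene. A loose check asked whether the first bases from the RefSeq start occur in a GENCODE transcript, or those of a transcript in the window. *Aurka* did not meet it and the other 6 did, which does not show that their start sites are the same.

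In the 6 windows with capitals, CCAAT boxes and a CHR-like hexamer lay close together near the start site. *Ccnb2* held CCAAT at 87, 54 and 21 bases before the start and TTTGAA from base 5 after it, besides a further TTTGAA at 167 bases before it. *Ccnb1* held CCAAT at 99 and 67 bases and TTTAAA at 42 bases before the start. *Cdc20* held CCAAT at 53 and 8 bases and TTTGAA at 18 bases before the start. *Ube2c* held 6 CCAAT boxes, 3 on each strand and an overlapping pair among them, with TTTGAA on the minus strand at 29 bases before the start. Positions count the first base of each motif on the strand of the gene. In *Pttg1* neither motif occurred in this window, which says only that these letters are not in these 300 bases.

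Across the 43 windows, TTTGAA or TTTAAA on either strand occurred in 35 (81.4%), against 27.8% of the 27025 RefSeq windows of the same length. TTTGAA alone occurred in 31 (72.1%), against 18.1% of all windows. CCAAT occurred in 33 (76.7%), against 37.9% of all windows, and at least 2 copies of it occurred in 23 (53.5%), against 12.2%. A CHR-like hexamer and CCAAT were both found in 30 (69.8%), against 10.9%. TGTTTA, a core of forkhead sites such as those of FOXM1, occurred in 8 (18.6%), against 13.4%. TTTCCCGC or TTTGGCGC, both forms of the E2F site of S phase genes, occurred in none of the 43 and in 1.63% of all windows. Among 39 matched genes of DNA replication and S phase, the share with a CHR-like hexamer was 23.1% and that with either E2F form 30.8%. CCAAT was frequent in these 39 as well, with 61.5% that held it and 35.9% that held at least 2 copies. These matches describe letters and not bound sites.

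Nearly all genes of G2 and mitosis rose in *Abat* cKO T cells. Of the 54 genes, all of which passed the filter on low counts, 52 rose, *Wee1* fell and *Pttg1* did not pass at an adjusted p under 0.05 in edgeR's quasi-likelihood test, where p-values were adjusted over all 13605 tested genes. Over all tested genes 18.1% were higher and 13.4% were lower, so that 31.5% were called. The median log2 fold change of the 54 genes was 0.70, a 1.63-fold higher level, beside a median of 0.0046 over all tested genes. Quartiles of the 54 values were 0.57 and 0.99. Of the 54 genes, 12 rose by at least 2-fold, as did 3.65% of all tested genes. In 52 genes the 3 *Abat* cKO samples lay above all 3 WT samples, as in 25.4% of all tested genes, and in *Wee1* they lay below them, as in 20.5%. Summed over the 54 genes, the level was 6541, 6109.9 and 6027 CPM in *Abat* cKO, against 3744, 3671 and 3580.2 CPM in WT, where CPM is now scaled by TMM (trimmed mean of M-values, which evens out library composition). Without *Top2a* and *Mki67*, which gave the most counts, the sums were 4181, 4165 and 4131 CPM in *Abat* cKO, against 2520.4, 2514 and 2426 CPM in WT. The median coefficient of variation between samples of a genotype was 3.39% in *Abat* cKO and 4.39% in WT. Differences between genes in the size of their change were not tested.

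**Figure D1:**
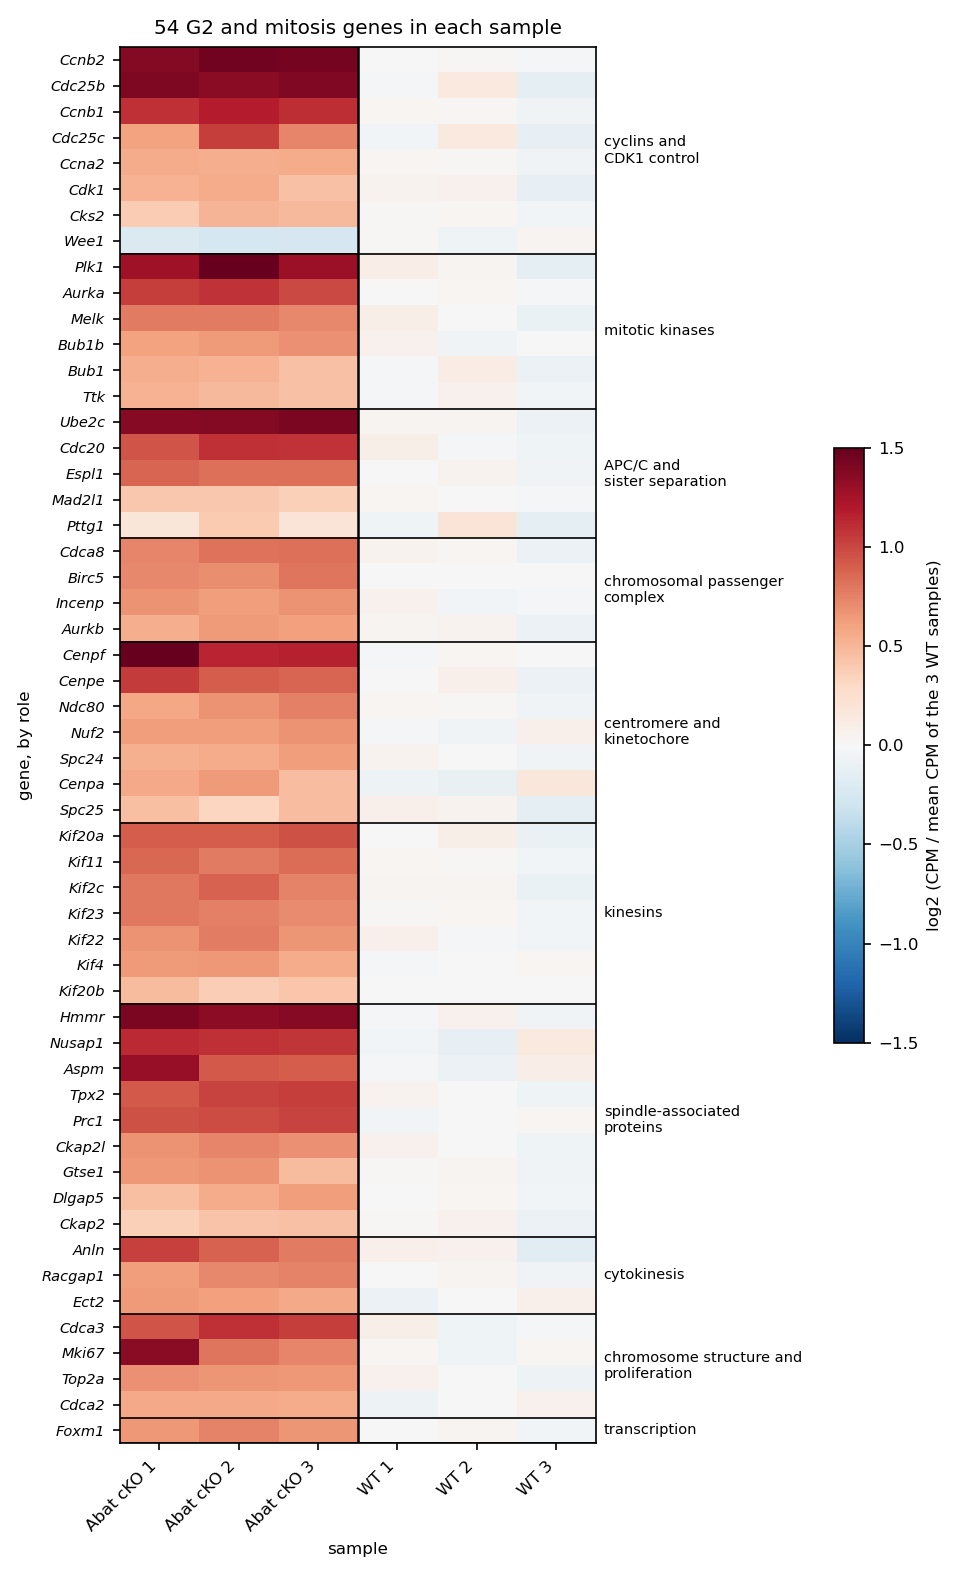
Heat map of the 54 genes (rows, by role) in the 6 samples (columns, *Abat* cKO left of WT), coloured by the log2 ratio of CPM to the mean of the 3 WT samples. The *Abat* cKO columns are red in all rows but *Wee1*, which is blue, and *Pttg1* is pale in them.

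Cyclins and the regulators of CDK1 showed both the largest increase and the only decrease of the 54 genes. *Ccnb2*, a B-type cyclin, had 21.9, 23.1 and 22.9 CPM in *Abat* cKO, against 8.48, 8.57 and 8.33 CPM in WT (log2 fold change of 1.42, SE 0.068, edgeR adjusted p = 2.7e-07). *Ccnb1*, the main mitotic partner of CDK1, had 91.7, 97.5 and 92.8 CPM in *Abat* cKO, against 43.9, 43.5 and 41.5 CPM in WT (log2 fold change of 1.13, SE 0.047, edgeR adjusted p = 1.2e-07). The genotypes were far apart in both cyclins, and the samples within a genotype differed by little. *Ccna2*, the A-type cyclin of S phase and G2, had 200.1, 199 and 201 CPM in *Abat* cKO, against 139, 138 and 131 CPM in WT (log2 fold change of 0.55, SE 0.041, edgeR adjusted p = 4.8e-06). *Cdk1* itself had 105, 108 and 99.7 CPM in *Abat* cKO, against 76.3, 76.6 and 67.3 CPM in WT (log2 fold change of 0.51, SE 0.058, edgeR adjusted p = 1.1e-04). Both had smaller fold changes than the B-type cyclins, and neither overlapped between genotypes. *Cks2*, a small subunit of cyclin-dependent kinases, had 68.2 ± 3.30 CPM in *Abat* cKO and 49.7 ± 1.15 CPM in WT (SD, n = 3 each, log2 fold change of 0.46, SE 0.050).

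Of the phosphatases that switch CDK1 on, *Cdc25b* and *Cdc25c* rose, and *Wee1*, a kinase that keeps it off, fell. *Cdc25b*, a phosphatase that starts CDK1 activation at the centrosome, had 51.4, 49.98 and 51.1 CPM in *Abat* cKO, against 19.1, 21.6 and 17.8 CPM in WT (log2 fold change of 1.38, SE 0.068, edgeR adjusted p = 3.3e-07). *Cdc25c*, its relative, was the least abundant of the 54 genes per length, with 7.51, 10.2 and 8.27 CPM in *Abat* cKO, against 4.83, 5.51 and 4.55 CPM in WT (log2 fold change of 0.80, SE 0.14, edgeR adjusted p = 0.0017). Every *Abat* cKO sample was above every WT sample for both phosphatases. *Cdc25a*, the third phosphatase of the family, which also acts at the start of S phase and is not one of the 54, was more abundant and did not pass, with 152, 152 and 154 CPM in *Abat* cKO, against 155, 158 and 139 CPM in WT (log2 fold change of 0.02, SE 0.053, edgeR adjusted p = 0.83). *Wee1*, the kinase that inhibits CDK1, had 52.1, 50.4 and 50.9 CPM in *Abat* cKO, against 61.6, 57.9 and 62.6 CPM in WT (log2 fold change of -0.25, SE 0.048, edgeR adjusted p = 0.0029), so that the *Abat* cKO samples were lower without overlap. The fall in *Wee1* was small beside the rises in *Cdc25b* and *Ccnb2*, and it missed the threshold when counts were scaled to the spike-in controls (edgeR adjusted p = 0.054). *Pkmyt1*, the other kinase that inhibits CDK1, had 70.9 ± 3.52 CPM in *Abat* cKO and 58.7 ± 2.18 CPM in WT (SD, n = 3 each) and rose by 0.27 on the log2 scale (SE 0.052, edgeR adjusted p = 0.0026).

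**Figure D2:**
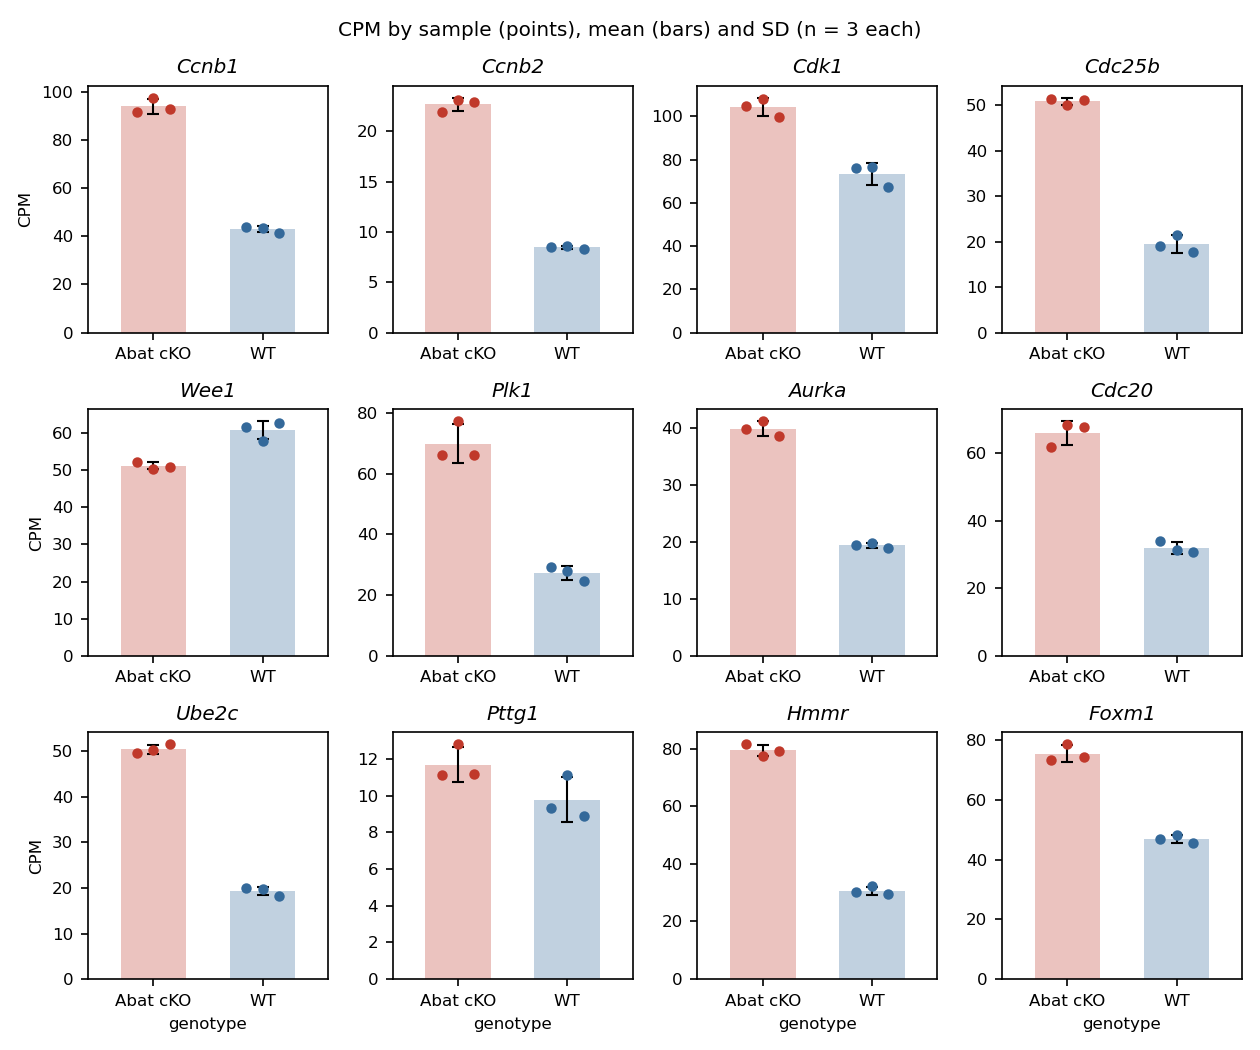
CPM of 12 of the genes in each sample, with *Abat* cKO left of WT in every panel (points for samples, bars for means, whiskers for SD, n = 3 each, each axis from 0). The genotypes do not overlap except in *Pttg1*, and *Wee1* is the panel in which *Abat* cKO is lower.

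All 6 mitotic kinases rose, with a median log2 fold change of 0.70. *Plk1*, the Polo-like kinase that acts from mitotic entry to cytokinesis, had 66.0, 77.3 and 66.1 CPM in *Abat* cKO, against 29.2, 28.0 and 24.5 CPM in WT (log2 fold change of 1.36, SE 0.081, edgeR adjusted p = 1.1e-06). *Aurka*, the Aurora kinase of centrosomes and spindle poles, had 39.9, 41.3 and 38.7 CPM in *Abat* cKO, against 19.5, 19.8 and 19.0 CPM in WT (log2 fold change of 1.04, SE 0.054, edgeR adjusted p = 4.9e-07). In both genes the *Abat* cKO samples lay far above the highest WT sample. The kinases of the spindle checkpoint, which delays anaphase until every chromosome is attached, had smaller fold changes. *Bub1b* (BUBR1) had 137 ± 4.13 CPM in *Abat* cKO and 87.6 ± 3.71 CPM in WT (SD, n = 3 each) with a log2 fold change of 0.65, *Bub1* one of 0.50 and *Ttk* (MPS1) one of 0.48. *Melk*, a kinase of dividing cells, had a log2 fold change of 0.76 (SE 0.055).

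Genes of the APC/C and of sister separation were unequal. *Ube2c*, the enzyme that passes ubiquitin to APC/C substrates, had 49.6, 50.2 and 51.5 CPM in *Abat* cKO, against 19.9, 19.8 and 18.2 CPM in WT (log2 fold change of 1.38, SE 0.056, edgeR adjusted p = 9.9e-08). *Cdc20*, the activator of the APC/C in mitosis, had 61.7, 68.3 and 67.6 CPM in *Abat* cKO, against 34.0, 31.3 and 30.6 CPM in WT (log2 fold change of 1.04, SE 0.060, edgeR adjusted p = 9.2e-07). *Espl1*, which encodes separase, had 135, 130.1 and 131 CPM in *Abat* cKO, against 73.5, 76.7 and 70.9 CPM in WT (log2 fold change of 0.84, SE 0.044, edgeR adjusted p = 5.2e-07). In each of these genes the lowest *Abat* cKO sample was well above the highest WT sample. *Mad2l1*, which encodes the checkpoint protein MAD2 that holds CDC20 inactive, had 128, 128 and 124 CPM in *Abat* cKO, against 98.3, 96.04 and 95.7 CPM in WT (log2 fold change of 0.39, SE 0.040, edgeR adjusted p = 5.2e-05) and was among the smallest increases. *Pttg1*, which encodes securin, the inhibitor and chaperone of separase, had 11.1, 12.8 and 11.2 CPM in *Abat* cKO, against 9.34, 11.1 and 8.86 CPM in WT (log2 fold change of 0.25, SE 0.11, edgeR adjusted p = 0.10). The highest WT sample of *Pttg1* lay above the lowest *Abat* cKO sample, and without WT replicate 2, the highest of WT, the same test passed (log2 fold change of 0.36, edgeR adjusted p = 0.036). Separase and its inhibitor thus had log2 fold changes of 0.84 and 0.25 in the same samples.

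The 4 subunits of the chromosomal passenger complex, which corrects attachments at centromeres and then guides cytokinesis, rose by similar amounts, between 0.60 and 0.79 on the log2 scale. *Aurkb*, its kinase, had 101, 108 and 106 CPM in *Abat* cKO, against 71.2, 71.6 and 64.9 CPM in WT (log2 fold change of 0.60, SE 0.051, edgeR adjusted p = 1.4e-05). *Birc5*, which encodes survivin, had 66.3, 65.1 and 70.1 CPM in *Abat* cKO, against 40.4, 40.2 and 40.2 CPM in WT (log2 fold change of 0.74, SE 0.047, edgeR adjusted p = 1.8e-06). The 3 WT samples of *Birc5* were nearly the same, and all *Abat* cKO samples were above them. *Incenp*, the scaffold of the complex, and *Cdca8* (borealin) had log2 fold changes of 0.66 (SE 0.044) and 0.79 (SE 0.051).

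All 7 genes of the centromere and kinetochore rose. *Cenpf*, a large protein of the outer kinetochore, had 138, 105 and 106 CPM in *Abat* cKO, against 46.9, 48.5 and 47.7 CPM in WT (log2 fold change of 1.29, SE 0.096, edgeR adjusted p = 5.3e-06). *Cenpe*, the kinesin that moves chromosomes towards the spindle equator, had 144, 131 and 127 CPM in *Abat* cKO, against 69.8, 73.3 and 65.1 CPM in WT (log2 fold change of 0.95, SE 0.061, edgeR adjusted p = 1.9e-06). *Cenpa*, the histone H3 variant that marks centromeres, had 38.9, 40.7 and 36.2 CPM in *Abat* cKO, against 24.9, 24.2 and 29.5 CPM in WT (log2 fold change of 0.56, SE 0.080, edgeR adjusted p = 4.6e-04). *Cenpf* was high in *Abat* cKO replicate 1, and *Cenpa* was high in WT replicate 3, yet neither gene overlapped between genotypes. The 4 subunits of the NDC80 complex, which grips microtubules, had smaller fold changes than *Cenpf* and *Cenpe*. *Ndc80* had 77.5, 82.9 and 87.6 CPM in *Abat* cKO, against 52.9, 52.6 and 49.8 CPM in WT (log2 fold change of 0.68, SE 0.055, edgeR adjusted p = 9.4e-06). *Nuf2*, *Spc24* and *Spc25* had log2 fold changes of 0.64, 0.57 and 0.41. *Spc25* was one of the 5 smallest changes, with 33.8, 31.0 and 34.1 CPM in *Abat* cKO, against 26.0, 25.5 and 22.6 CPM in WT (SE 0.069, edgeR adjusted p = 0.0013).

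All 7 kinesins, motors that move along microtubules, rose, with a median log2 fold change of 0.75. *Kif11* (Eg5), which pushes spindle poles apart, had 265, 250.1 and 259 CPM in *Abat* cKO, against 148, 147 and 141 CPM in WT (log2 fold change of 0.83, SE 0.043, edgeR adjusted p = 4.3e-07). *Kif20a* (MKLP2), which carries the chromosomal passenger complex to the spindle midzone, had 99.4, 99.4 and 103 CPM in *Abat* cKO, against 53.0, 56.3 and 49.5 CPM in WT (log2 fold change of 0.92, SE 0.053, edgeR adjusted p = 8.6e-07). *Kif2c* (MCAK), which removes faulty attachments by depolymerising microtubules, had 48.4, 51.6 and 46.7 CPM in *Abat* cKO, against 28.8, 28.8 and 26.1 CPM in WT (log2 fold change of 0.81, SE 0.061, edgeR adjusted p = 5.5e-06). No kinesin overlapped between genotypes. *Kif23* (MKLP1), *Kif22* and *Kif4*, the last pair motors on chromosome arms, had log2 fold changes of 0.75, 0.70 and 0.62, and *Kif20b*, a motor of late cytokinesis, was the lowest at 0.42.

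The 9 spindle-associated proteins had the highest median of the groups with more than 1 gene, at 0.98. *Hmmr*, a microtubule-binding protein of spindle poles, had 81.6, 77.6 and 79.2 CPM in *Abat* cKO, against 30.4, 32.2 and 29.5 CPM in WT (log2 fold change of 1.37, SE 0.050, edgeR adjusted p = 4.5e-08), with the smallest adjusted p of the 54 genes. *Tpx2*, which activates Aurora A on the spindle, had 136, 146 and 148 CPM in *Abat* cKO, against 74.96, 72.7 and 69.4 CPM in WT (log2 fold change of 0.99, SE 0.049, edgeR adjusted p = 3.5e-07). Samples of each genotype were close to one another in both genes. *Nusap1*, which bundles spindle microtubules, *Aspm* of the spindle poles and *Prc1*, which crosslinks the midzone, had log2 fold changes of 1.10, 1.06 and 0.98. *Ckap2l*, *Gtse1* and *Dlgap5* (HURP) had 0.70, 0.60 and 0.55 on the same scale. *Ckap2*, a microtubule stabiliser, was one of the 5 smallest changes, with 33.3, 34.9 and 35.1 CPM in *Abat* cKO, against 26.2, 27.0 and 24.4 CPM in WT (log2 fold change of 0.41, SE 0.058, edgeR adjusted p = 4.4e-04).

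The 3 genes of cytokinesis also rose. *Racgap1*, which with KIF23 forms centralspindlin at the midzone, had 102, 108 and 109 CPM in *Abat* cKO, against 66.0, 67.6 and 63.0 CPM in WT (log2 fold change of 0.70, SE 0.048, edgeR adjusted p = 3.1e-06). *Ect2*, the exchange factor that activates RhoA at the cell equator, and *Anln*, a scaffold of the contractile ring, had log2 fold changes of 0.61 and 0.90. *Top2a*, the topoisomerase that untangles sister chromatids and the most abundant of the 54 per length, had 1112, 1089.8 and 1081 CPM in *Abat* cKO, against 723, 692 and 655 CPM in WT (log2 fold change of 0.67, SE 0.044, edgeR adjusted p = 2.2e-06). *Mki67*, which encodes the proliferation antigen Ki-67, a coat of mitotic chromosomes, had 1248, 855 and 814 CPM in *Abat* cKO, against 500.4, 466 and 499 CPM in WT (log2 fold change of 0.99, SE 0.13, edgeR adjusted p = 3.1e-04). *Abat* cKO replicate 1 was well above the other 2 samples of its genotype for *Mki67* but not for *Top2a*. *Cdca3*, known as a trigger of mitotic entry, and *Cdca2*, a targeting subunit of protein phosphatase 1 on chromatin, had log2 fold changes of 1.03 and 0.57. *Foxm1*, the forkhead transcription factor of the G2 and M programme, had 73.5, 78.7 and 74.5 CPM in *Abat* cKO, against 46.8, 48.4 and 45.5 CPM in WT (log2 fold change of 0.69, SE 0.048, edgeR adjusted p = 3.4e-06), close to the median of the 54 genes.

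**Figure D3:**
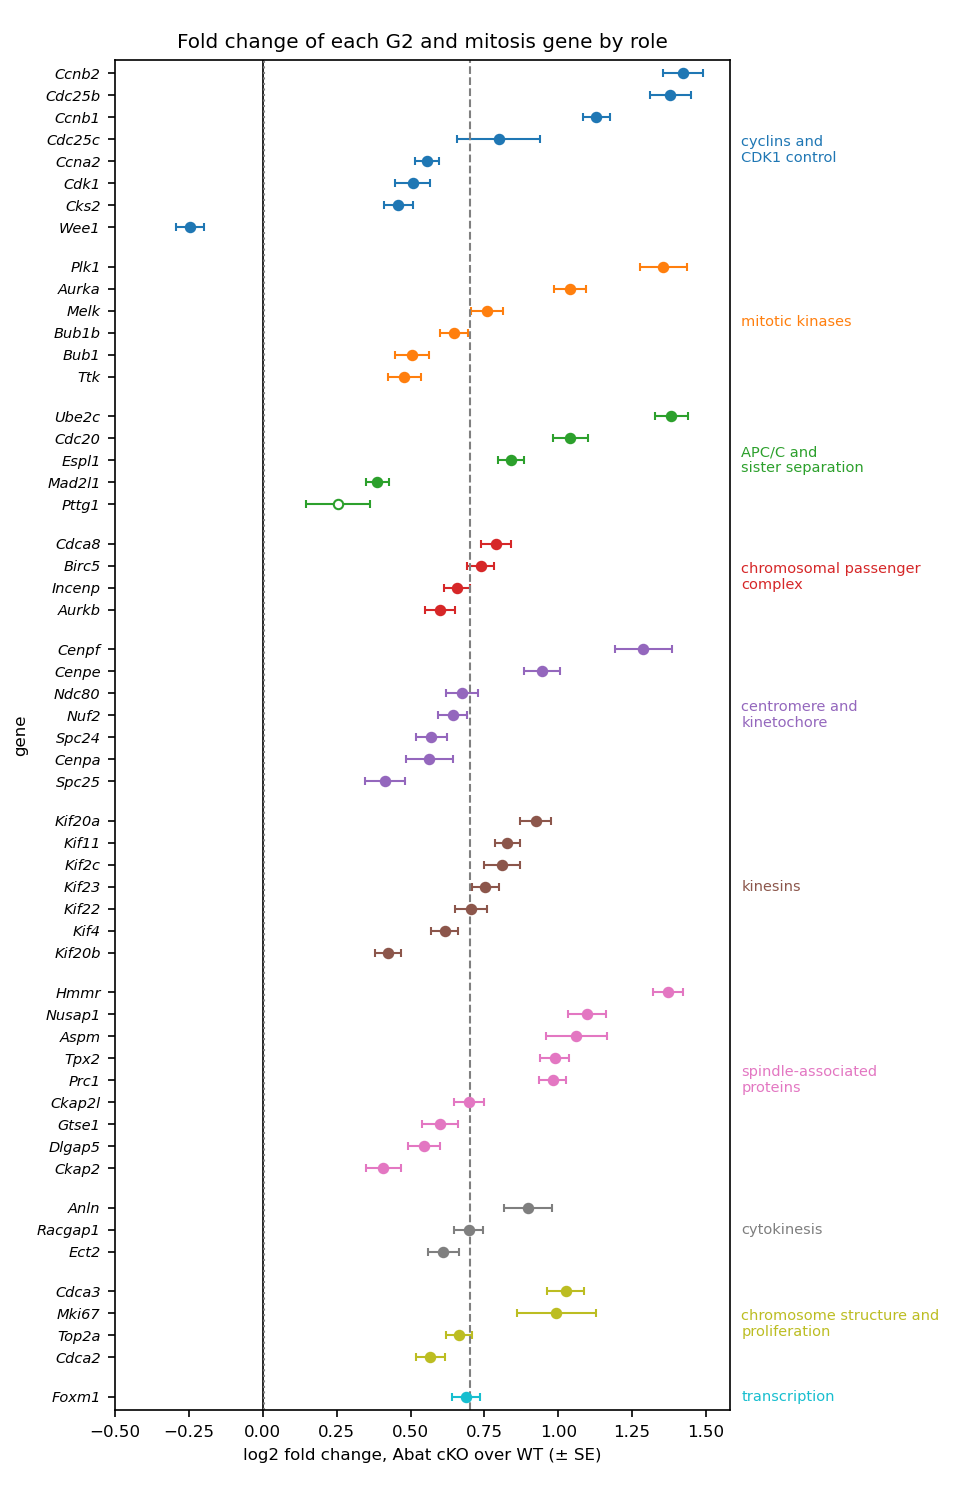
Log2 fold change of *Abat* cKO over WT for each of the 54 genes (points) with its SE (whiskers), by role, where the dashed line is the median of the 54 genes (0.70) and the dotted line that of all tested genes (0.0046). *Ccnb2*, *Ube2c*, *Cdc25b*, *Hmmr* and *Plk1* are the 5 largest changes, *Wee1* lies below 0, and the open point is *Pttg1*, which did not pass.

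Levels of the 54 genes covered a wide range. Per kilobase of gene length, the median level was 19.99 CPM in *Abat* cKO and 11.8 CPM in WT. The range was 4.45 to 210 CPM per kilobase in *Abat* cKO and 2.56 to 132 CPM per kilobase in WT, from *Cdc25c* to *Top2a* in both genotypes. On this scale of levels, *Cks2* and *Mki67* followed *Top2a*, with 98.6 and 96.7 CPM per kilobase in *Abat* cKO and 71.8 and 48.55 CPM per kilobase in WT.

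Long genes were high in *Abat* cKO replicate 1, one of the samples that stood apart. The 5 genes over 7000 bp had a median log2 ratio of 0.39 for that sample over the mean of the other 2 *Abat* cKO samples, while the 19 genes under 3000 bp had one of -0.06. All tested genes with a mean of at least 10 CPM showed the same tendency, with 0.18 for 826 long and -0.07 for 3343 short genes. In that sample *Mki67* (10061 bp) was 1.495-fold and *Aspm* (9867 bp) 1.311-fold the mean of the other 2, with *Cenpf* (11130 bp) much like *Aspm*, and *Mad2l1* (7557 bp) was 1.02-fold. In WT replicate 3 the same 5 genes had a median log2 ratio of 0.0004 over the other WT samples, and the 19 short genes had one of -0.09. Over all tested genes at that level the values of WT replicate 3 were 0.02 for long and -0.03 for short genes. Long genes were thus above short ones in this sample too, by less than in *Abat* cKO replicate 1. Without *Abat* cKO replicate 1 the log2 fold change of *Mki67* was 0.77, and 52 of the 54 genes were again higher. Without both samples that stood apart, 52 genes were higher and *Wee1* lower, and the median was 0.70.

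**Figure D4:**
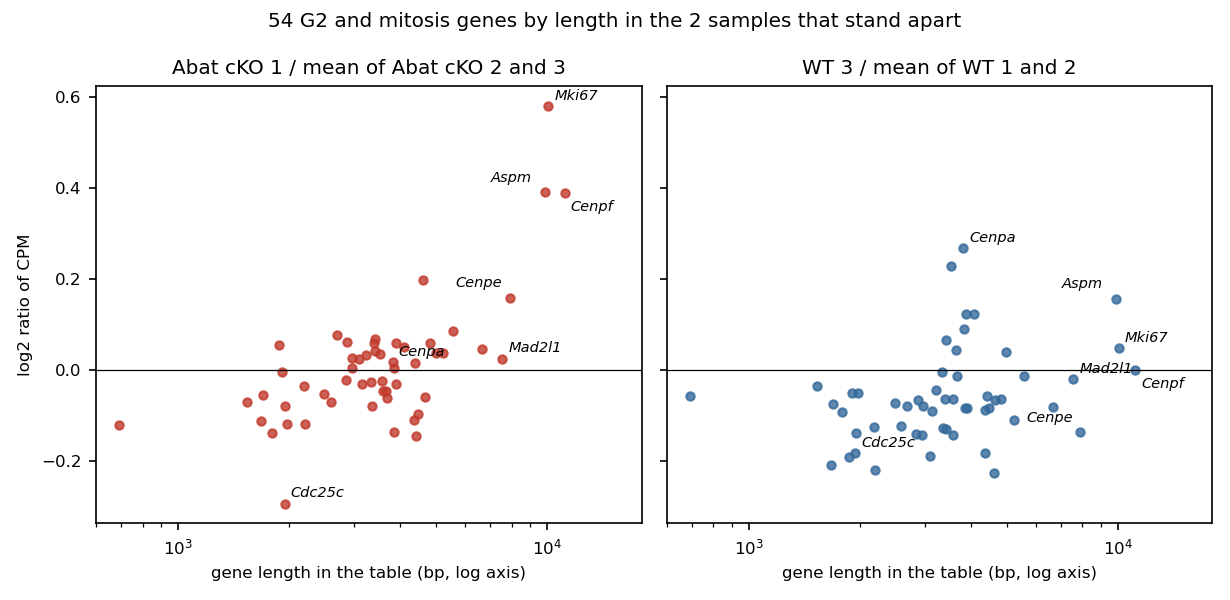
Log2 ratio of CPM in *Abat* cKO replicate 1 to the mean of *Abat* cKO replicates 2 and 3 (left) and in WT replicate 3 to the mean of WT replicates 1 and 2 (right) against gene length in bp (log axis), 1 point for each of the 54 genes. *Mki67*, *Aspm* and *Cenpf* are the highest points on the left. On the right *Aspm* lies below only *Cenpa* and *Nusap1*, and *Mki67* and *Cenpf* are lower than *Aspm*.

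Some counts could hold reads of other genes. Exons of 8 of the 54 genes overlap a tested gene on the opposite strand, and whether strand was used in counting is not given in the sources used here. The largest overlaps were those of *Kif20a* with *Cdc23* (1271 bases, *Cdc23* at a log2 fold change of 0.29), *Prc1* with *Rccd1* (911 bases, -0.20), *Kif4* with *Pdzd11* (832 bases, 0.25) and *Ccna2* with *Exosc9* (510 bases, 0.02). *Nusap1* with *Oip5*, *Cdca8* with *9930104L06Rik*, *Cdc25b* with *Spef1* and *Cdc20* with *Elovl1* shared 53 to 232 bases. Pseudogenes close in sequence to *Ccnb1*, *Cks2*, *Cenpe*, *Mad2l1* and *Mki67* held at most 0.686% of the counts of the gene itself. *Cenpa*, *Cenpf*, *Birc5* and *Racgap1* contain stretches of 150 to 194 bases that were at least 95% identical to transcripts of other loci, some of them abundant. The counts of *Ankrd17* were 1380% of those of *Cenpa*, those of *Eprs* 851% of *Cenpf*, those of *Topbp1* 521% of *Racgap1* and those of *Trim27* 293% of *Birc5*. Another partner of *Cenpa*, *Cdkn1a*, had 146% of its counts and itself rose, with a log2 fold change of 0.996. Fold changes of the other partners of these 4 genes are not given here. How reads of these stretches were assigned was not tested, so the levels and fold changes of these 4 genes are uncertain to that extent.

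Mitotic genes outside the 54 were nearly all higher too. Of 56 other mitotic genes, 55 were tested, 53 were higher and 2, *Zwint* (-0.08) and *Mis12* (0.02), did not pass, with a median log2 fold change of 0.50. Scaled to the spike-in controls, 44 of them were higher. *H2afx*, a histone variant of the DNA damage response, had 462, 470.3 and 470.2 CPM in *Abat* cKO, against 251, 244 and 231 CPM in WT (log2 fold change of 0.95, SE 0.043, edgeR adjusted p = 2.3e-07). *Hmgb2*, a chromatin protein of dividing cells, had 572, 591 and 608 CPM in *Abat* cKO, against 352, 338 and 342 CPM in WT (log2 fold change of 0.78, SE 0.041, edgeR adjusted p = 5.0e-07), and *Kif14*, a kinesin of cytokinesis, had a log2 fold change of 0.91 (SE 0.057). Of 18 genes of condensin and cohesin, the rings that compact chromosomes and hold sisters together, 11 were higher and 7 did not pass, with a median of 0.20. *Ncapd2* of condensin I led this list at 0.75, with *Cdca5* (sororin) at 0.51 and *Ncapg* at 0.49. Of 16 genes of the inner centromere network (CCAN), 10 were higher and 6 did not pass, with a median of 0.29 and with *Cenpn*, *Cenpi* and *Cenpk* at 0.62, 0.55 and 0.43.

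Of 17 genes for the subunits of the APC/C, its second activator and its partners, 9 were higher and 8 did not pass, with a median of 0.17. *Anapc11*, the catalytic RING subunit, *Ube2s*, which extends ubiquitin chains, and *Fzr1*, the activator of late mitosis and G1, had log2 fold changes of 0.62, 0.52 and 0.41. Of 17 genes for MuvB, DREAM and their partners, the complexes that bind CHR and E2F elements, 5 were higher, 1 was lower and 11 did not pass, with a median of 0.11. The called share of this list and of the next was near the 31.5% over all tested genes. *Mybl2* (B-MYB) had 93.6, 94.5 and 101 CPM in *Abat* cKO, against 73.7, 69.1 and 66.0 CPM in WT (log2 fold change of 0.47, SE 0.053, edgeR adjusted p = 1.0e-04). *Nfyb* and *Nfyc*, subunits of NF-Y, had log2 fold changes of 0.40 and -0.18, and *Rb1*, the retinoblastoma protein, had one of 0.25.

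Of 20 genes that control the G2 to M transition, most of them as brakes, 6 were higher, 1 was lower and 13 did not pass, beside 18.1% higher and 13.4% lower over all tested genes, with a median of 0.13. The list also holds *Cdc25a* and the Greatwall pathway (*Mastl*, *Ensa* and *Arpp19*), which promote entry into mitosis, and of these *Mastl* was among the 6 (log2 fold change of 0.36, SE 0.068, edgeR adjusted p = 0.0023). *Cdkn1a*, which encodes the CDK inhibitor p21, had 68.4, 61.5 and 60.0 CPM in *Abat* cKO, against 29.9, 30.4 and 34.9 CPM in WT (log2 fold change of 0.996, SE 0.072, edgeR adjusted p = 4.2e-06). *Gadd45g*, a stress-induced inhibitor of CDK1, was low, with 5.95, 7.93 and 9.15 CPM in *Abat* cKO, against 3.93, 3.67 and 2.47 CPM in WT (log2 fold change of 1.19, SE 0.20, edgeR adjusted p = 0.0015). *Chek1*, the checkpoint kinase that inhibits CDC25, had a log2 fold change of 0.26 (SE 0.040), and *Trp53* (p53) one of -0.15 (SE 0.042).

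Of 50 genes of DNA replication and S phase, 19 rose and 3 fell, while 28 did not pass, with a median of 0.07. Over all tested genes 18.1% were higher and 13.4% were lower, so that a larger share of this list rose. *Rrm2*, the regulatory subunit of ribonucleotide reductase, had 390.1, 404 and 391.8 CPM in *Abat* cKO, against 283, 275 and 249.6 CPM in WT (log2 fold change of 0.56, SE 0.051, edgeR adjusted p = 2.4e-05). *Orc1* of the origin recognition complex and *Ccne1* (cyclin E1) had log2 fold changes of 0.39 and 0.36. *Mcm6*, a subunit of the replicative helicase, had 599, 604 and 619 CPM in *Abat* cKO, against 716, 712 and 678 CPM in WT (log2 fold change of -0.21, SE 0.040, edgeR adjusted p = 0.0025). Scaled to the spike-in controls, 4 genes of this list were higher in place of 19, while the 52 higher genes of G2 and mitosis remained. That scaling moved the median log2 fold change of all tested genes by -0.05, so that the fold changes themselves differed little. The summed level of the list was 10990.3, 11246 and 11279 CPM in *Abat* cKO, against 10877, 10739 and 10397 CPM in WT.

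**Figure D5:**
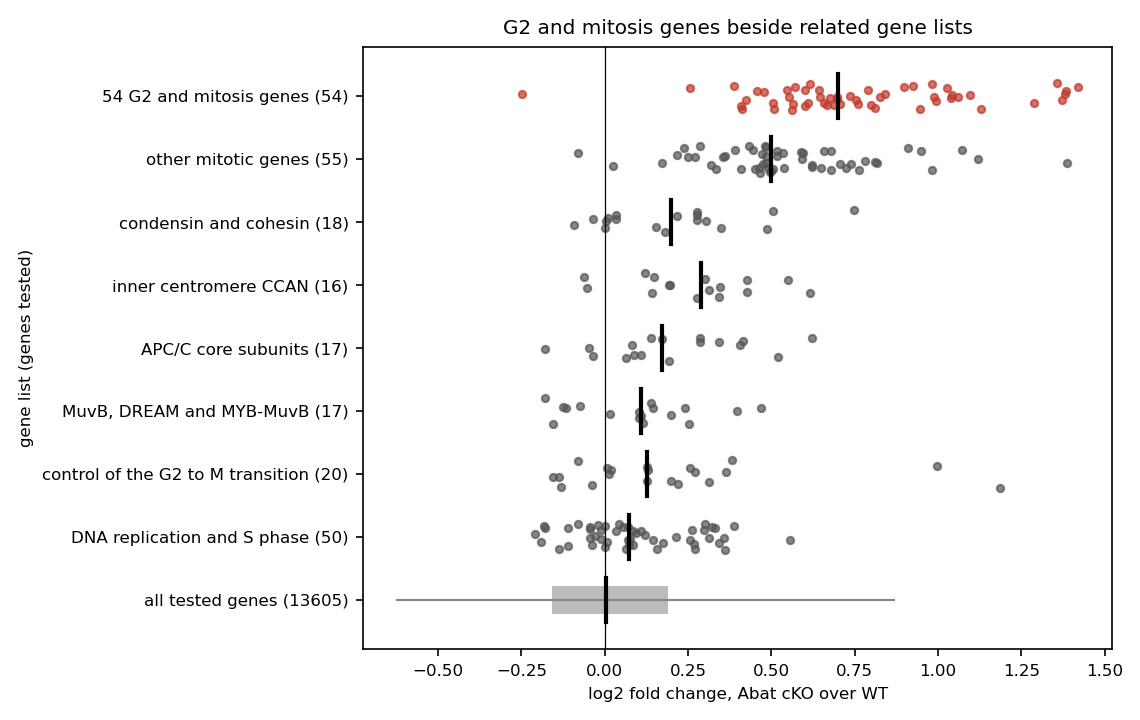
Log2 fold change of *Abat* cKO over WT for each tested gene (points) of the 54 G2 and mitosis genes and 7 related lists, with the median as a vertical bar. The last line gives all tested genes, with a box from -0.16 to 0.19 for the quartiles and a line from -0.62 to 0.87 for the 5% and 95% quantiles. The 54 genes lie farthest to the right (median 0.70), then other mitotic genes (0.50). Genes of S phase have a median of 0.07, with points from -0.21 to 0.56.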

How the data were processed

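Total RNA without ribosomal RNA was sequenced from 3 *Abat* cKO and 3 WT samples. Raw counts, whole numbers for 54525 genes and 92 spike-in controls, were deposited by the authors. Normalised counts were deposited as well and are a signal, the raw count over 1 size factor for each sample (within 0.1% for all 54 genes). Columns with log2 fold changes and adjusted p-values of the authors' own comparison were not used here. The counting tool is uncertain, since the methods give TopHat2 and HTSeq on GRCm38 while the submitters' processing notes list STAR 2.7 and RSEM 1.31.

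Genotypes were compared on raw counts by the quasi-likelihood test of edgeR 4.0.16 (R 4.3.3) with TMM factors, filterByExpr and Benjamini-Hochberg adjustment over 13605 genes at a threshold of 0.05. CPM are counts over the TMM-adjusted total of the tested genes, and SE is that of the log2 fold change. Spike-in controls, at most 1.003% of a sample's counts, were left out of the tests. Gene overlaps came from GENCODE for GRCm38, and promoters from RefSeq. Other settings were the size factors of DESeq2 1.42.0 and its test, scaling to library size or to spike-in controls, 2 other filters, protein-coding genes alone, a threshold of 0.01, the replicate number as a block, and leaving out samples.

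The 54 genes and the other lists were chosen with earlier results of these data known. Values are given for core regulators fixed by name, the 5 largest and 5 smallest changes and any gene that did not pass, and for each other list the 3 genes with the smallest adjusted p and 1 called in the other direction, besides *Cdc25a*, *Mastl*, *Pkmyt1*, *Zwint*, *Mis12* and genes that share sequence with the 54, which were chosen after their values were seen. The study calls the samples independent biological samples.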

Additional observations from a re-analysis of the deposited data

How the results depend on the processing

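The 52 genes of G2 and mitosis that were higher in *Abat* cKO were higher and passed in all 15 alternatives, with a highest adjusted p of 0.0242 from edgeR or DESeq2, and at a threshold of 0.01 in the main analysis. *Wee1* and *Pttg1* each changed their call in 1 alternative. Scaled to the spike-in counts, *Wee1* did not pass, so that 0 of the 54 genes were lower (log2 fold change of -0.29), and the median of the 54 genes was 0.65 in place of 0.70. In the other alternatives the median ranged from 0.67 to 0.73. Over all genes, spike-in scaling gave 1339 higher and 1185 lower and a threshold of 0.01 gave 1631 higher and 1051 lower, in place of 2464 and 1827. Numbers of the replicates did not pair the samples (correlations of -0.29, 0.12 and -0.28 between samples of the same number), and with the replicate block 2028 genes were higher and 1416 lower, with the same 52 genes higher and *Wee1* lower.

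Counts for the other lists depended on spike-in scaling most. In place of 53, 11, 10, 9, 5, 6 and 19 genes, 44 of the other mitotic genes, 3 of condensin and cohesin, 4 of the CCAN, 4 of the APC/C, 2 of MuvB and DREAM, 3 of the G2 to M list and 4 of DNA replication were higher, and 0 of the last 3 lists were lower. With library size alone, 1 other mitotic gene, 2 of MuvB and DREAM and 6 of DNA replication were lower. With DESeq2, 0 of MuvB and DREAM were lower. With the replicate block, 0 of the G2 to M list and 1 of DNA replication were lower. With protein-coding genes alone, 2 of MuvB and DREAM and 6 of DNA replication were lower. At a threshold of 0.01, 0 of MuvB and DREAM, 0 of the G2 to M list and 1 of DNA replication were lower. Leaving out 1 sample gave between 0 and 2 lower genes in the G2 to M list, 1 and 3 in DNA replication, 0 and 1 in MuvB and DREAM, and 0 and 1 in condensin and cohesin. Without *Abat* cKO replicate 1 and WT replicate 3, an alternative chosen after seeing the data, 1 other mitotic gene, 1 of condensin and cohesin, 2 of MuvB and DREAM and 2 of the G2 to M list were lower. The cause of these differences was not tested. For single genes, *Pttg1* ranged from 0.18 to 0.36 and passed without WT replicate 2 (0.36).

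The 3 samples per genotype from separate cultures limit what the p-values cover, and genotype, culture and mouse line cannot be told apart. The genes of the 54 with the fewest counts, *Cdc25c* and *Pttg1*, had an SE of 0.14 and 0.11, beside a median SE of 0.053. The SE was also large in *Mki67*, at 0.13, although it was one of the genes with the most counts.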

Other observations

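Among the 43 genes of G2 and mitosis with a matched promoter, the 35 with TTTGAA or TTTAAA had a median log2 fold change of 0.79 (range 0.41 to 1.42) and the 8 without had a median of 0.57 (range 0.25 to 1.38). For CCAAT, the 33 with a copy had a median of 0.79 (range 0.41 to 1.42) and the 10 without had a median of 0.71 (range 0.25 to 1.10). Both groups without a motif include *Pttg1*, whose window lies within its GENCODE gene and which has the lowest value of each. The ranges overlapped almost throughout, and these values are given as a description with no test.

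Some mitotic genes of low abundance outside the 54 had large changes as well. *Fam83d*, a spindle protein, had a log2 fold change of 1.12 (SE 0.094) and *Depdc1b*, a protein of mitotic entry, one of 1.07 (SE 0.13), each higher in 3 of 3 *Abat* cKO samples. They were chosen after their values were seen, and their mean level was 11.6 and 9.41 CPM in *Abat* cKO, against 5.32 and 4.48 CPM in WT.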
